A study of Canis lupus familiaris with 58 samples.

Results

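The 68 genes described here encode the nuclear-encoded part of oxidative phosphorylation, and they were taken from 15115 genes measured in B-cell lymphomas of pet dogs. A gene was included when its symbol began with NDUFA, NDUFB, NDUFS, NDUFV, UQCR, COX4, COX5, COX6, COX7, COX8 or ATP5, or was SDHA, SDHB, SDHC or SDHD. These prefixes also took in 7 assembly factors of complex I (NDUFAF genes), which are not subunits and were kept apart, leaving 61 subunit genes and close relatives. Of the 68 genes, 31 belonged to complex I, 4 to complex II, 7 to complex III, 9 to complex IV, among them NDUFA4 and its relative NDUFA4L2, and 10 to complex V.

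Total RNA from 58 dogs, sampled before treatment, was hybridised to Affymetrix canine arrays with 1 array per dog. The specimens were 39 lymph nodes and 19 fine needle aspirates, the latter being cells drawn through a needle with their diagnosis given as unknown. The lymph nodes were 32 diffuse large B-cell lymphomas (DLBCL) and 7 marginal zone lymphomas (MZL). Mutation of IGHV, the variable gene of the antibody heavy chain, was labelled static in 26 dogs (18 lymph node DLBCL, 1 MZL and 7 aspirates), ongoing in 27 dogs (12, 4 and 11) and ND in 5 dogs (2, 2 and 1). Progression-free survival (PFS) was given for 55 dogs with 47 events and overall survival (OS) for 56 dogs with 41 events. All were client-owned pet dogs, and no healthy tissue was compared. The mean of each of 9 measured B-cell markers lay above the median of all probe sets (7.17 on the log2 scale), but PAX5, a B-cell transcription factor, did so barely, with a median of 7.21. MS4A1 (CD20) had a median of 12.73 and was as low as 6.96 in 1 dog. Of 15 T-cell markers 12 also lay above that value, with CD3D, a chain of the T-cell receptor complex, at a median of 13.05. A tumour is a mixture of cells, so fewer cells of a type and less RNA per cell cannot be told apart.

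The respiratory chain passes electrons from NADH, through complex I, or from succinate, through complex II, to complex III and then to complex IV, which reduces oxygen. Complexes I, III and IV pump protons across the inner mitochondrial membrane, and complex V, the ATP synthase, lets them flow back to make ATP. The complexes are built from a few catalytic or proton-moving subunits and many small accessory ones, and the mitochondrial genome encodes some of the core subunits of complexes I, III, IV and V. Of 26 names of mitochondrially encoded subunits searched, 0 matched a probe set, so only the nuclear-encoded genes are described. Each gene was read from its brightest probe set. Values are log2 levels, so that a difference of 1 is a doubling, and levels are not compared between genes because probe sets differ in affinity. The mean level of 67 of the 68 genes lay above the median of all probe sets, against 60.4% of all genes. The exception was NDUFA4L2, a relative of a complex IV subunit, at 6.29.

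The genes varied together from dog to dog. With values centred within specimen, 1 shared pattern (the first principal component) held 53.8% of the variance of the 68 genes, against 18.0% for the same measure over all 15115 genes, and 63 of the 68 genes had the same sign on it. The correlation of a gene with the mean of the other 67 genes had a median of 0.785, was above 0.8 for 33 genes and under 0.3 for 9 genes. It was 0.796 in lymph node (n = 39) and 0.758 in aspirates (n = 19). The median correlation over all 2278 pairs of the 68 genes was 0.464, against 0.017 over all pairs of genes on the array. These correlations are descriptions. All genes of a dog share 1 array and 1 normalization. The genes on the array at large include a greater share of dim ones than the 68, and genes of like brightness were not compared.

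**Figure D1:**
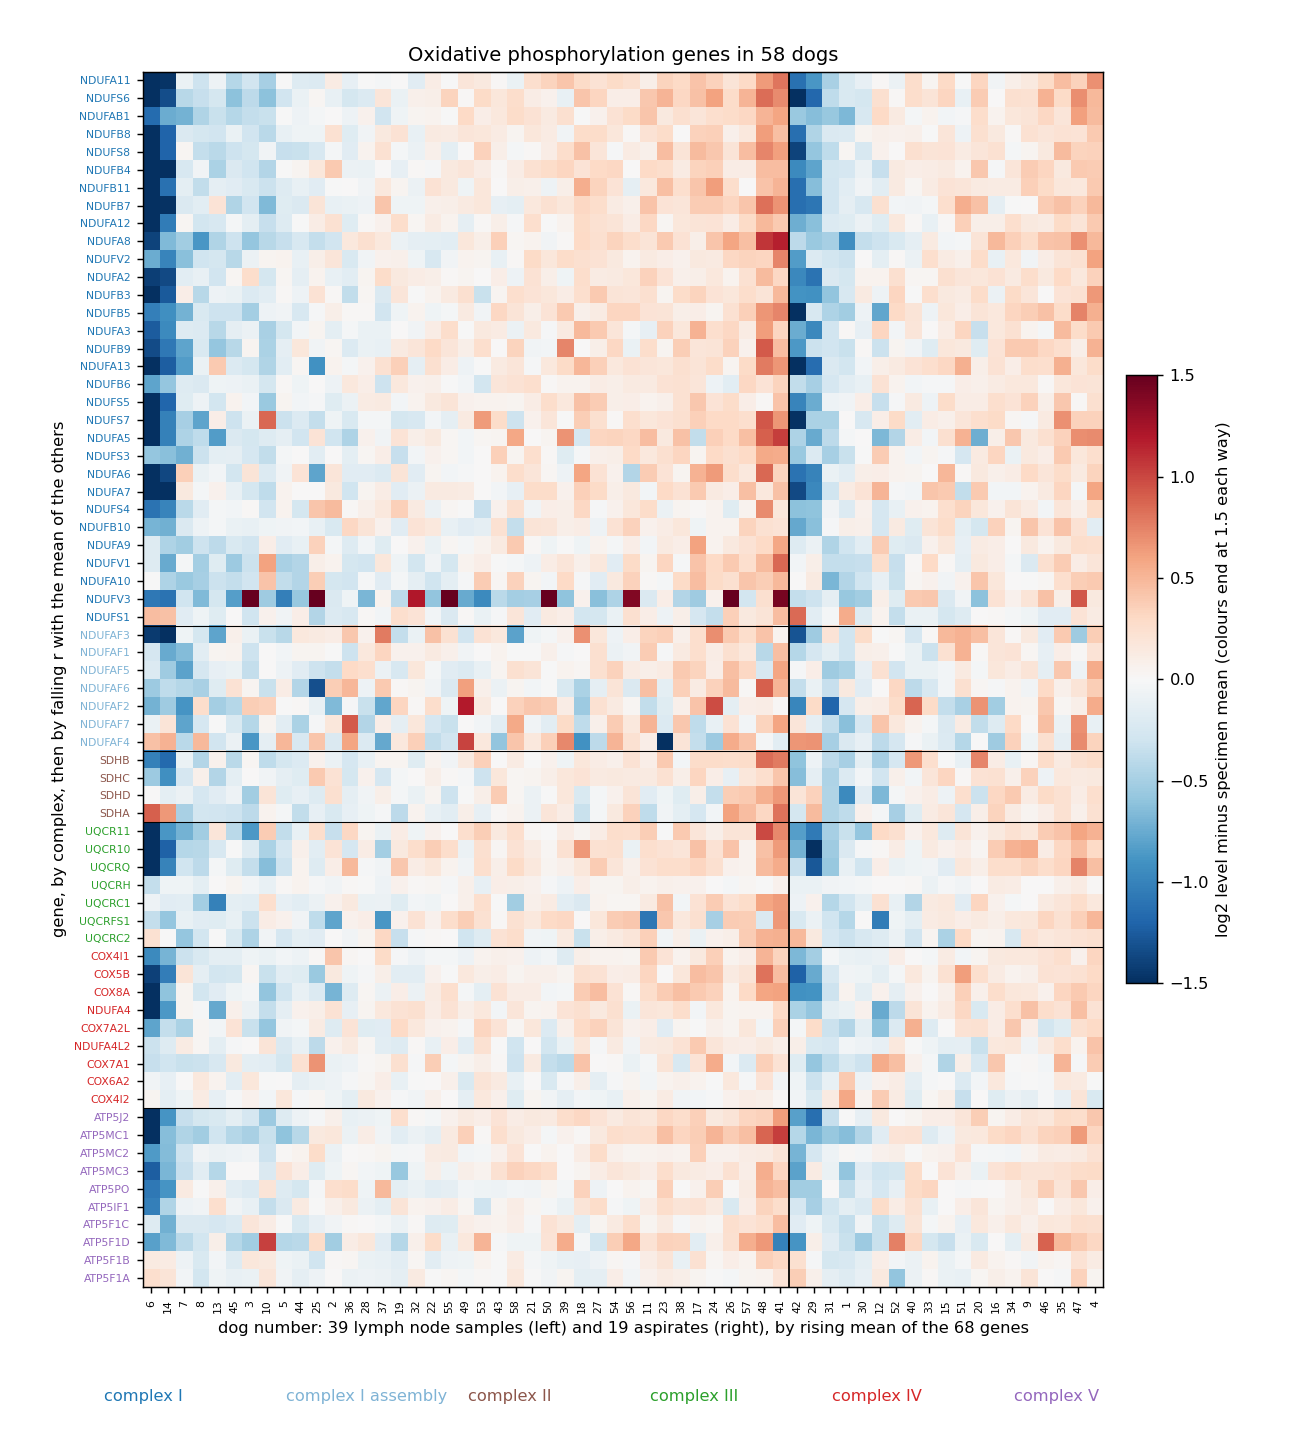
Log2 level of each of the 68 genes (rows, by complex) in each dog (columns, dog numbers; 39 lymph nodes to the left of the vertical line and 19 aspirates to the right), as the difference from the mean of that specimen; colours end at 1.5 each way. Most rows run from blue on the left to red on the right of each block, dogs 6, 14, 42 and 29 hold the lowest values, and SDHA, NDUFS1, NDUFAF4 and ATP5F1A do not follow.

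Complex I genes had a median correlation of 0.860 with the mean of the other genes, a mean to which complex I itself gives the most genes. The highest were NDUFA11 at 0.938 and NDUFAB1, the mitochondrial acyl carrier protein, at 0.922, both accessory subunits, and NDUFS6, an accessory subunit bound near the electron input arm, at 0.929. NDUFA11 ran from 9.67 in dog 6 to 12.46 in dog 41, with a median of 11.66 over 58 dogs. NDUFS8 and NDUFS7, which carry iron-sulfur clusters on the path of the electrons, were at 0.910 and 0.831, so the pattern was not limited to accessory subunits. Among pairs of complex I genes the median correlation was 0.725, while pairs of a complex I gene and a gene outside the complex had a median of 0.465. The same measure was 0.469 for complex V, 0.423 for complex III, 0.365 for complex II and 0.357 for complex IV. The partners differ, since complex I genes count among the outside genes of the other complexes only, so these medians do not rank the complexes. The closest pair was NDUFB8 and NDUFB11, both in the membrane arm, at 0.940.

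NDUFS1 was the complex I gene that stood farthest from the rest. It encodes the largest iron-sulfur subunit of the complex, and its correlation with the mean of the other genes was -0.24. Its level was highest in dogs 42 (11.63) and 1 (11.34), and in lymph node it was highest in dog 6 (11.23), where most of the other genes were at their lowest. It was nearly the same in lymph node dog 41 (11.23), which had the highest mean of the genes described here. Lymph node dog 14, where that mean was low, was at 11.21. The high NDUFS1 levels in lymph node thus lay at both ends of the shared pattern. Its correlation with NDUFV1, the subunit that takes electrons from NADH, was 0.034, while NDUFV1 and its partner NDUFV2 reached 0.631. NDUFS1 was read by 3 further probe sets, which followed the first at 0.611, 0.436 and 0.573.

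Complex II, which also belongs to the tricarboxylic acid cycle, was divided. SDHB, the iron-sulfur subunit, and SDHC, a membrane anchor, followed the other genes at 0.815 and 0.770 and each other at 0.679. SDHA, the subunit that oxidises succinate, was at 0.038, and its correlation with SDHB was 0.083. SDHA reached its highest level over all dogs, 12.39, in dog 6, against a median of 11.45. SDHD, the other membrane anchor, lay between them at 0.355 and was closer to SDHA (0.524) than to SDHB (0.389).

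In complex III the small subunits UQCR11, UQCR10 and UQCRQ followed the other genes at 0.880, 0.875 and 0.872. The large core proteins did so less, UQCRC1 at 0.499 and UQCRC2 at 0.266. UQCRFS1, the Rieske iron-sulfur protein, was at 0.435. UQCRH, the hinge protein beside cytochrome c1, had the smallest spread of the 68 genes, an SD of 0.081 over 58 dogs, and yet followed the others at 0.667. That spread belongs to its brightest probe set, with a mean of 14.14 on arrays whose highest value was 15.11. The next 2 probe sets of UQCRH by level had SDs of 0.344 and 0.316.

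In complex IV, COX4I1, the common form of subunit 4, COX5B and COX8A followed the other genes at 0.872, 0.862 and 0.853, and NDUFA4, once counted with complex I, at 0.747. COX4I2, the alternative form of subunit 4 known from lung, was at -0.057, and its correlation with COX4I1 was 0.048. The 2 probe sets of COX4I2 correlated at only 0.096, so its reading is uncertain. COX6A2 and COX7A1, the forms typical of heart and skeletal muscle, were at 0.212 and 0.449, and their counterparts COX6A1 and COX7A2 were not analysed here. COX7A2L, which helps join complexes III and IV, was at 0.501. COX5A, COX6A1, COX6B1, COX6C, COX7A2 and COX7C had no probe set with that single symbol here, so complex IV is described from part of its subunits.

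In complex V the c-ring genes ATP5MC1, ATP5MC2 and ATP5MC3, which encode the same mature protein, followed the other genes at 0.915, 0.823 and 0.809 and each other at 0.703 to 0.742. ATP5J2, a small subunit of the membrane part and named as in the array annotation, was at 0.917. ATP5PO, in the stalk, and ATP5IF1, the inhibitor that stops the enzyme running backwards, were at 0.772 and 0.735. ATP5F1A and ATP5F1B, the alpha and beta subunits of the catalytic head, were at -0.033 and 0.224, and correlated with each other at 0.614. The chosen probe sets had SDs of 0.15 and 0.14, and the second probe sets of ATP5F1A and ATP5F1B had SDs of 0.21 and 0.25.

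**Figure D2:**
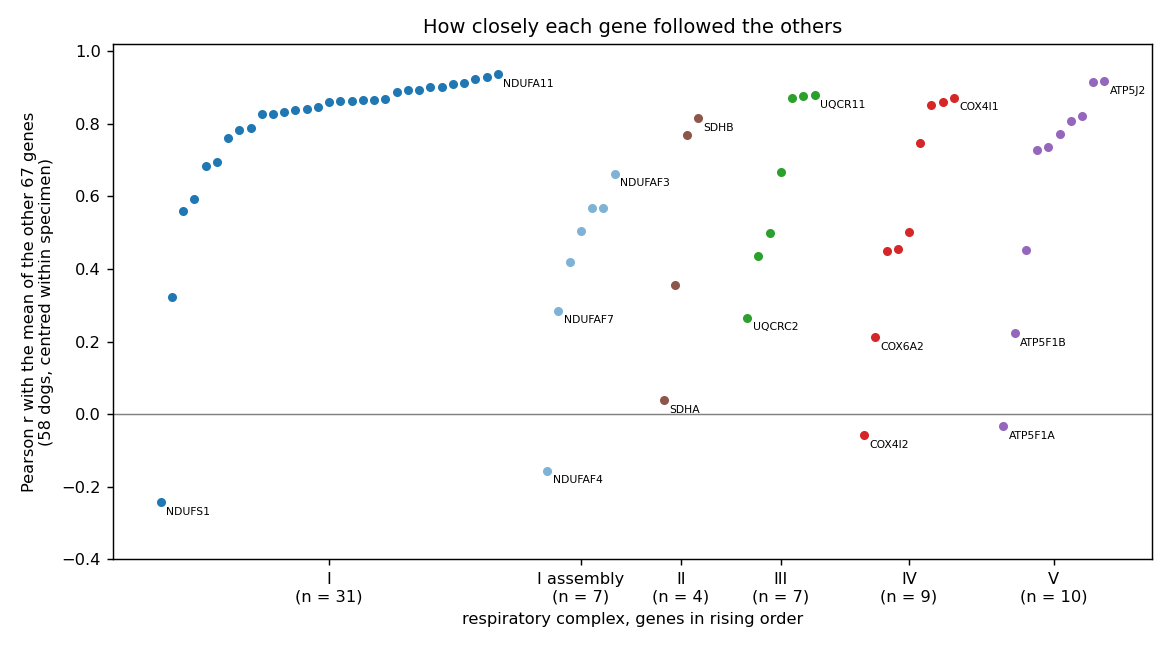
Pearson correlation of each gene with the mean of the other 67 genes (vertical axis, 58 dogs, values centred within specimen), with genes in rising order within each complex. Complex I is crowded above 0.8 with NDUFS1 at -0.24 at its foot, and each complex has at least 1 gene under 0.3.

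ATP5F1A, ATP5F1B, SDHA, SDHD, UQCRC2 and NDUFA10 formed a second, smaller pattern. They had the 6 largest loadings on the second component, which held 10.4% of the variance, with values from 0.25 to 0.30. SDHA and ATP5F1A correlated at 0.504, and UQCRC2 and ATP5F1A at 0.490, although they belong to different complexes. Sorted by a list of catalytic and proton-moving subunits, drawn up after the loadings had been seen, 7 of 18 such genes correlated under 0.5 with the mean of the others, against 5 of 41 other subunits. UQCRC1 and UQCRC2, counted apart as structural core proteins, were both under 0.5.

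The 7 assembly factors help build complex I and leave it. Their median correlation with the mean of the other genes, assembly factors among them, was 0.504, with 0 of 7 above 0.8. The median was higher in complexes I (0.860), II (0.562), III (0.667) and V (0.753), but about the same in complex IV (0.501). Among the assembly factors NDUFAF3 was highest at 0.663. NDUFAF4, its partner in early assembly, was at -0.16, and the pair ran against each other at -0.48.

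The 68 genes varied more between dogs than genes at large. The median SD of the 68 genes was 0.359, against 0.249 for all genes, and 55 of 68 were above that value. The sets differ in brightness, with 67 of the 68 genes above the median of all probe sets against 60.4% of all genes. The SDs were not compared among genes of like brightness. Few dogs held the low end. The mean of the 68 genes, set against its average over dogs, was lowest in dogs 6 (-0.93) and 14 (-0.70), both static lymph node DLBCL, and in dogs 42 (-0.61) and 29 (-0.47), both static aspirates. Next came dog 31 at -0.36, an ongoing aspirate. The highest were dogs 41 (0.49) and 48 (0.46), both static lymph node DLBCL. Dog 6 had the lowest level of 35 of the 68 genes and dog 14 of 8, while dog 48 had the highest of 22 and dog 41 of 19. Without dogs 6, 14, 41 and 48, chosen after their values were seen, the first component held 43.3% and 13 genes were above 0.8, so part of the coherence rests on these dogs.

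Technical values stood out in some of these dogs and not in others. The array of dog 42 had the second lowest mean correlation with the other arrays, 0.952, and that of dog 14 the third, 0.955, against a median of 0.972. Dog 41 had a difference of 2.65 between the 3' and 5' ends of control transcripts, a sign of degraded or incompletely copied RNA, against a median of 0.087. Dog 6 was at 0.22 and dogs 14, 29 and 42 between -0.13 and -0.053. The mean array correlation was 0.962 in dog 6, 0.967 in dog 29 and 0.970 in dog 48. Dog 12 had the lowest array correlation (0.941) and a 3' minus 5' difference of 1.53, but its mean of the 68 genes was -0.10. Over dogs, the mean of the 68 genes correlated with the mean array correlation at 0.409 in lymph node and 0.519 in aspirates, and at 0.019 and 0.389 without the 2 dogs farthest out on the mean of the 68 genes. With the 3' minus 5' difference it correlated at 0.307 and -0.004, and at 0.444 and -0.26 without them. Without the 2 dogs farthest out on the 3' minus 5' difference instead, dog 41 among them in lymph node, these were 0.043 and 0.271. The correlation with the mean array correlation was 0.153 and 0.515 without the 2 dogs farthest out on that measure. These are descriptions with no test. With the arrays of dogs 12, 41 and 42, which stood apart on these measures, left out, the first component held 53.1%.

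The genes outside the list that most resembled its mean were led by another complex I subunit. NDUFC2, whose symbol falls outside the prefixes used, correlated at 0.954 (mean of 0.943 in lymph node and 0.965 in aspirates). It was followed by HYPK, a partner of the huntingtin protein, at 0.931 and LOC608048 at 0.923. The other 7 of the first 10 included 4 mitochondrial ribosomal proteins (MRPS14, MRPL22, MRPL27 and MRPS12, from 0.905 to 0.919), LSM3 of the splicing machinery, PSMB3 of the proteasome and TOMM6 of the mitochondrial import pore.

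Other mitochondrial gene groups were set against the mean of the 68 genes as descriptions. Genes of the mitochondrial ribosome (72 measured), which translates the mitochondrially encoded subunits, had a mean that correlated at 0.948 in lymph node and 0.934 in aspirates. For 28 assembly factors of the chain outside the list the values were 0.803 and 0.725. For 17 genes of the tricarboxylic acid cycle, which supplies the electrons, they were 0.027 and 0.052. Without the 2 dogs farthest out on the mean of the 68 genes in each specimen, the tricarboxylic acid cycle reached 0.544 and 0.757, while the mitochondrial ribosome stayed at 0.933 and 0.936. Glycolysis (21 genes) was at 0.120 and 0.248, and at 0.104 and 0.463 without those dogs. The 18 regulators of mitochondrial biogenesis were at 0.286 and 0.046, and at 0.510 and 0.619 without them. Proliferation (27 genes) was at 0.151 and 0.211, and at 0.349 and 0.728 without them. The values depended on which dogs were left out. Without the 2 dogs farthest out on the group's own mean instead, the tricarboxylic acid cycle was at 0.285 and -0.13. Biogenesis regulators were then at 0.145 and -0.26, and proliferation at 0.230 and -0.029. Glycolysis was at 0.175 and 0.255, and the mitochondrial ribosome at 0.933 and 0.900.

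Markers of cell types were set beside the mean of the 68 genes in the same way. B-cell markers (9 genes), those of the tumour's own lineage, lay at -0.20 in lymph node and 0.038 in aspirates. They lay at -0.40 and -0.17 without the 2 dogs farthest out on the mean of the 68 genes. T-cell markers (15 genes) lay at -0.016 and -0.21, and at -0.004 and -0.48 without them. Macrophage markers (16 genes) were at 0.267 and 0.321, and at -0.025 and 0.045 without them. Endothelial markers (12 genes) were at 0.343 in lymph node and erythroid markers (7 genes) at 0.358, and at 0.105 and 0.231 without those dogs. In aspirates the same lists were at 0.015 and 0.054, and at -0.35 and 0.076 without them. Markers of skeletal and cardiac muscle (19 genes, 7 of them above the median of probe sets) were at 0.469 in lymph node and 0.079 in aspirates, and at 0.242 and -0.30 without them. Here too the values depended on the dogs left out. Without the 2 dogs farthest out on the marker mean instead, B-cell markers lay at -0.059 and -0.43. T-cell markers then lay at -0.005 and -0.037, and macrophage markers at 0.332 and 0.302. Endothelial markers were at 0.426 and 0.027, erythroid markers at 0.457 and -0.052, and muscle markers at 0.401 and 0.306. The part of these cell types in the pattern was not tested.

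NDUFV3, an accessory subunit of the electron input arm, varied most, with an SD of 0.90. Its level was high in 8 lymph node DLBCL, from 12.04 in dog 32 to 13.24 in dog 55, and the next dog was at 11.08. These dogs were 3, 25, 26, 32, 41, 50, 55 and 56. IGHV status was static in 6 of them, ongoing in 1 and ND in 1. No MZL and no aspirate lay above the gap of 0.96; MZL ran from 9.82 to 10.91 and aspirates from 9.50 to 11.05. The 2 lowest dogs for most of the genes, 6 and 14, were not among the 8. A second probe set of NDUFV3 showed no such gap. It ran from 8.92 to 11.51, its widest step among the 20 highest dogs was 0.264, and it correlated with the first at 0.812. In dog 55 the 2 probe sets stood at 13.24 and 11.16, and in dog 48 at 11.08 and 11.25. The gap therefore belongs to 1 probe set of the gene.

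**Figure D3:**
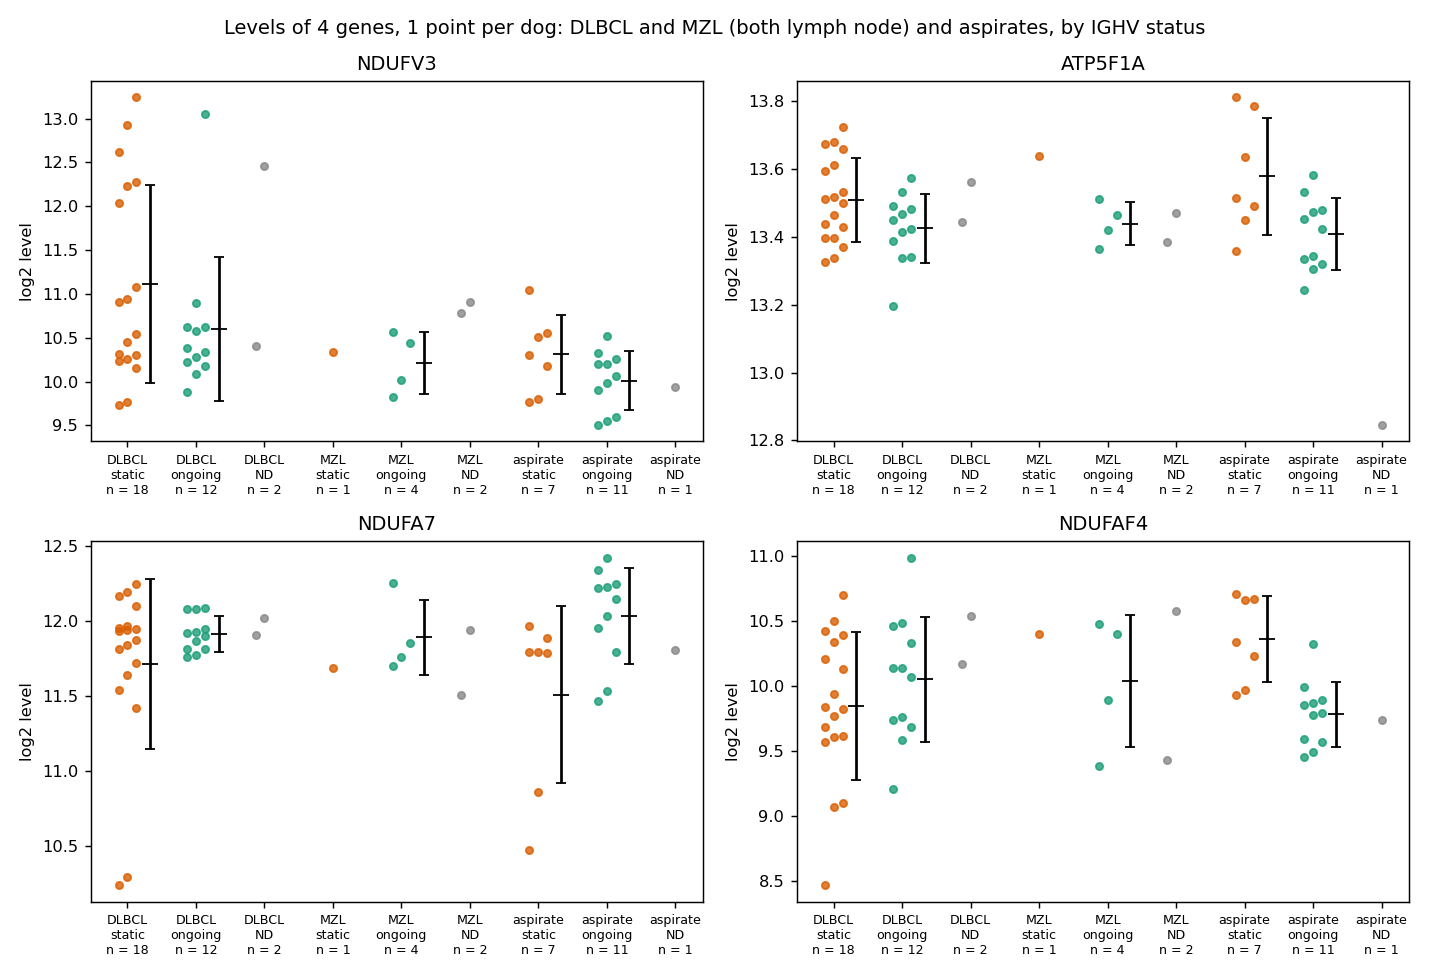
Log2 levels of NDUFV3, ATP5F1A, NDUFA7 and NDUFAF4, 1 point per dog, by specimen, diagnosis and IGHV status; bars give the mean ± SD of groups of 3 or more dogs. NDUFV3 has 8 lymph node DLBCL above 12, the 4 lowest NDUFA7 points are static, and most static aspirates lie above most ongoing aspirates for NDUFAF4.

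IGHV status was compared because ongoing mutation marks B cells with an active germinal centre programme. None of the 68 genes passed an adjusted p of 0.05 (limma, stratum as covariate, Benjamini-Hochberg over 15115 genes, 53 dogs), and no gene on the array did (0.0% called). At an unadjusted p under 0.05 there were 4 of 68 genes, 5.88%, against 7.13% of all genes. The median difference, static minus ongoing, was -0.033 (all genes -0.005), with 26 of 68 genes higher in static dogs. The genes varied together, so this count and the like counts in the other comparisons are not counts of independent genes. The share of all genes that were higher is not given beside these counts. The median over all genes stands beside the main count of each comparison instead. Complex I had a median of -0.10, with 8 of 31 higher, while all 4 complex II genes were higher, with a median of 0.066. The mean of the complex I genes, set against its average over dogs, had a median of 0.060 in static and 0.054 in ongoing dogs, while its averages were -0.040 and 0.017, and it was lowest in static dogs 6 (-1.22), 14 (-0.97) and 42 (-0.89). The median half-width of the 95% confidence intervals of the 68 genes was 0.210. These intervals are not adjusted for the number of genes, so a difference had to be larger to pass the adjusted threshold.

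Fitted within 1 specimen, 0 of 68 genes had an unadjusted p under 0.05 in lymph node DLBCL (1.82% of all genes) and 6 of 68 in aspirates (14.1% of all genes, 0.0397% past the adjusted threshold), and again none of the 68 passed the adjusted threshold.

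ATP5F1A had the smallest p of these genes. In static dogs it ran from 13.33 through a median of 13.51 to 13.81 and in ongoing dogs from 13.20 through 13.42 to 13.58, so the groups overlapped. The difference was 0.12 ± 0.036 (SE; limma adjusted p = 0.670), and it was 0.084 in lymph node DLBCL and 0.17 in aspirates. ATP5F1B, its partner, differed by 0.081 (adjusted p = 0.718).

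NDUFA7, an accessory subunit of complex I, differed the other way by -0.31 ± 0.12 (adjusted p = 0.670), with -0.20 in lymph node DLBCL and -0.53 in aspirates. Its static dogs ran from 10.23 (dog 14) through 11.83 to 12.25 and its ongoing dogs from 11.46 through 11.93 to 12.42. Only a few static dogs were low, and the medians lay closer than the means (11.66 ± 0.56 and 11.96 ± 0.24; SD). NDUFAF3 differed by -0.31 (adjusted p = 0.671), with -0.082 in lymph node DLBCL and -0.61 in aspirates, and was likewise lowest in dogs 14 (8.97), 6 (9.04) and 42 (9.14). NDUFAF1, another assembly factor, differed by -0.14 (adjusted p = 0.701).

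The mean of the 68 genes was more spread out in static than in ongoing dogs. The mean of the 68 genes had an SD of 0.329 in static and 0.157 in ongoing dogs, with medians of 0.062 and 0.021. The SDs were 0.346 and 0.128 in lymph node DLBCL, and 0.323 and 0.184 in aspirates. Both the lowest 4 and the highest 2 dogs were static. The wider spread was noticed in the data, it rests on few dogs, and the difference in spread was not tested. Among these dogs, 41 and 42 had arrays that stood apart, and the array correlation of dog 14 was low (0.955). The SDs are not given without these arrays.

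**Figure D4:**
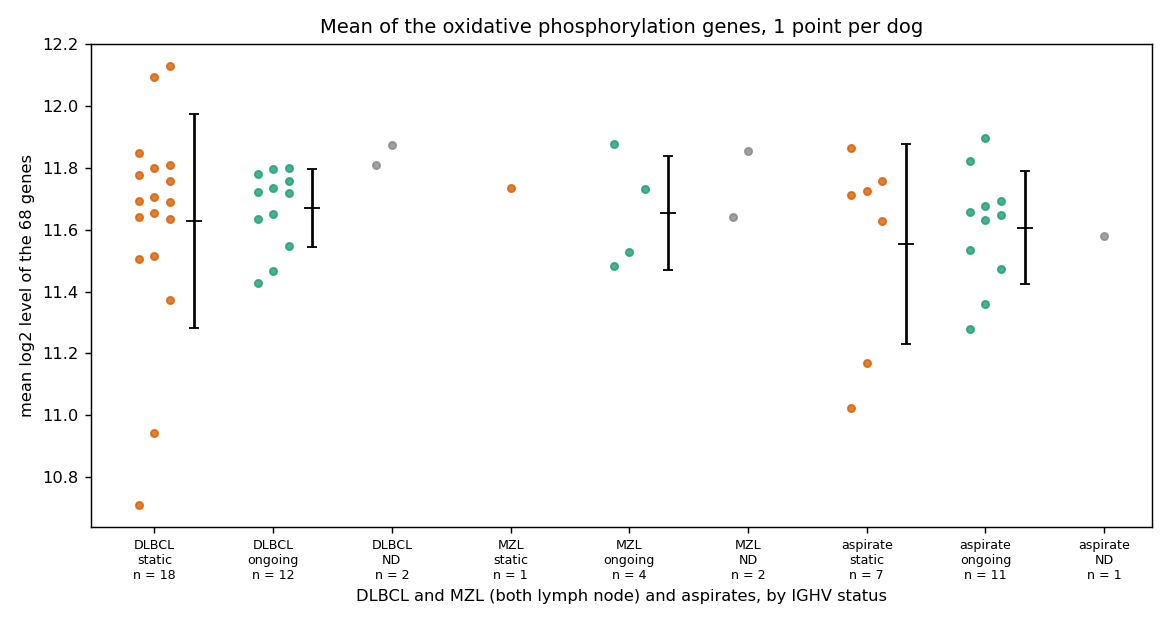
Mean log2 level of the 68 genes in each dog, by specimen, diagnosis and IGHV status; bars give the mean ± SD of groups of 3 or more dogs. The groups overlap, and the static groups reach both lower and, in lymph node DLBCL, higher than the ongoing ones.

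Whether the IGHV difference itself varied between aspirates and lymph nodes was asked with an interaction term (limma). None of the 68 genes passed (0.0132% of all genes called), and 3 had an unadjusted p under 0.05, 4.41%, against 9.1% of all genes. NDUFAF4 had the smallest p, with a term of 0.73 ± 0.27 (adjusted p = 0.415). In aspirates its static dogs ran from 9.93 through 10.33 to 10.70 and its ongoing dogs from 9.45 through 9.79 to 10.32. In lymph node DLBCL the static dogs ran from 8.47 through 9.83 to 10.70 and the ongoing dogs from 9.21 through 10.10 to 10.98. The static aspirates thus lay mostly above the ongoing ones, and the lymph node groups overlapped widely. COX7A2L (0.39, adjusted p = 0.465) and NDUFAF7 (0.41, adjusted p = 0.508) had the same sign, as did SDHD (0.33, adjusted p = 0.547), and NDUFAF3 had the opposite one (-0.45, adjusted p = 0.617). The median term of the 68 genes was -0.051 and turned to 0.056 without the arrays of dogs 12, 41 and 42.

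Aspirates were compared with lymph nodes over all 58 dogs. None of the 68 genes passed (limma; 0.119% of all genes called), and 3 had an unadjusted p under 0.05, 4.41%, against 11.8% of all genes. The median difference, aspirate minus lymph node, was -0.055 (all genes -0.006), and 12 of 68 genes were higher in aspirates. The median was below 0 in each complex, at -0.090 for complex I, -0.080 for complex II, -0.049 for complex III, -0.041 for complex IV and -0.036 for complex V. Without the arrays of dogs 12, 41 and 42 the median was -0.013 and 28 genes were higher. T-cell markers were higher in aspirates in 15 of 15 genes, with a median difference of 0.27 and none past the adjusted threshold, and their part in the difference was not tested.

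NDUFV3 had the largest difference, -0.73 ± 0.23 (adjusted p = 0.152), with 10.12 ± 0.39 in aspirates and 10.84 ± 0.98 in lymph nodes (SD). The medians, 10.18 and 10.45, lay closer than the means, and the 8 high dogs were all lymph nodes. On its second probe set the means were 9.87 ± 0.42 and 10.28 ± 0.62. NDUFAF5, which hydroxylates a complex I subunit during assembly, differed by -0.21 (adjusted p = 0.228). NDUFA3 differed by -0.22 (adjusted p = 0.368), SDHD by -0.16 (adjusted p = 0.426) and NDUFA5 by -0.27 (adjusted p = 0.431).

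The 7 MZL were compared with the 32 DLBCL within lymph nodes. None of the 68 genes passed (limma; 0.0% of all genes called), and 0 of 68 had an unadjusted p under 0.05, against 1.16% of all genes. The median difference, MZL minus DLBCL, was 0.046 (all genes -0.007), and 48 of 68 genes were higher in MZL, among them 7 of 7 assembly factors. The mean of the assembly factors, set against its average over dogs, ran from -0.073 through 0.12 to 0.35 in MZL. In DLBCL it ran from -0.56 through 0.016 to 0.33. Among MZL it was highest in dogs 36 (0.35) and 24 (0.23), both ND. COX7A2L differed by 0.15, from 11.46 through 11.67 to 11.72 in MZL and from 10.72 through 11.54 to 11.87 in DLBCL, so that MZL lay within the DLBCL range. ATP5MC3 (0.17), NDUFB6 (0.13), UQCRH (0.053) and NDUFV3 (-0.53) followed, each with an adjusted p of 1.00. The median of the 68 genes was 0.010 without dog 24, 0.014 without dog 57, 0.071 without dog 5 and 0.072 without dog 45.

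**Figure D5:**
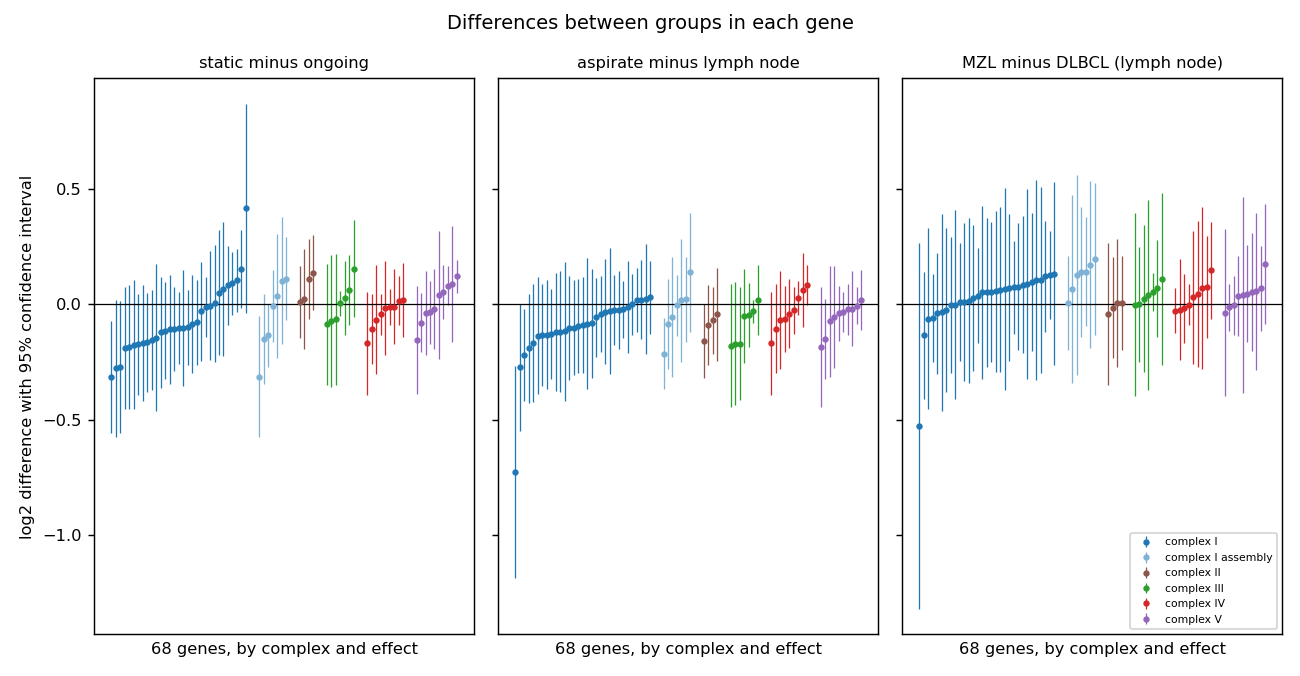
Log2 difference with its 95% confidence interval for each of the 68 genes in 3 comparisons (static minus ongoing, aspirate minus lymph node, and MZL minus DLBCL within lymph node), by complex and in rising order. Most intervals cross 0, the widest belong to NDUFV3, and none of the genes passed an adjusted p of 0.05.

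For outcome, each gene entered a Cox score test with specimen as the stratum, where a positive z means earlier events at a higher level. The labels give no unit of time. For PFS none of the 68 genes passed (0.0% of all genes called), and 1 of 68 had an unadjusted p under 0.05, 1.47%, against 2.83% of all genes. The median z was 0.113 (all genes 0.013), with 42 of 68 above 0. For OS none of the 68 passed (0.00662% of all genes called), and 1 of 68 had an unadjusted p under 0.05, against 3.99% of all genes. The median z was 0.285 (all genes -0.073), with 46 of 68 above 0.

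NDUFAF4 was that gene in both outcomes. Its z was -1.97 for PFS and -2.10 for OS, with an adjusted p of 1.00 in both. The hazard ratio for PFS was 0.50 per log2 unit (95% confidence interval 0.250 to 1.00), with 0.420 in lymph node (0.187 to 0.942) and 0.815 in aspirates (0.225 to 2.95). For OS the hazard ratio of NDUFAF4 was 0.481 (0.241 to 0.957), with 0.496 in lymph node (0.229 to 1.075) and 0.425 in aspirates (0.090 to 2.0). The lymph node interval for OS and the aspirate intervals for both outcomes span both directions. The difference between specimens was not tested. COX6A2 was the other gene whose lymph node interval for PFS lay to one side of 1, in the opposite direction, and its interval for OS did so too. Per SD, its hazard ratio in lymph node was 1.67 for PFS (1.09 to 2.55) and 1.72 for OS (1.10 to 2.70), and in aspirates 0.751 (0.441 to 1.28) and 0.996 (0.599 to 1.66). These intervals are not adjusted for the number of genes. COX6A2 was also dim, with a mean of 7.39 against the median of 7.17 over all probe sets, and an SD of 0.125. Its second probe set, with a mean of 6.47, followed the first at only 0.487. The other genes with the smallest p for PFS were NDUFS1 (z -1.20), NDUFV1 (1.20), NDUFV3 (1.14) and COX4I2 (-1.08). For OS they were COX6A2 (1.56), SDHD (1.22), NDUFV1 (1.19) and UQCRH (-1.19).

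The mean of the 68 genes overlapped between dogs with an early PFS event and dogs with a later time, with or without an event. In dogs with a PFS event before the median time it ran from -0.70 (dog 14) through 0.091 to 0.46 (dog 48), and in dogs with a time at or past it from -0.93 (dog 6) through -0.007 to 0.24. The averages of the early and later groups were 0.051 and -0.073. Of the low dogs, dog 14 was early, while dogs 6, 42, 29 and 31 lay at or past the median time. Dog 41, which had the highest mean, had an earlier time without an event and was in neither group. The difference between these groups was not tested. In lymph nodes alone the median z of the 68 genes for PFS was 0.279, with 50 above 0, and in aspirates alone it was -0.234, with 19 above 0, a difference that was not tested.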

How the data were processed

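Trizol extracts were labelled with biotin, per the labels' protocols. For each of 58 arrays the authors deposited log2 levels of 43035 probe sets. Affymetrix Expression Console and its RMA method were used for them (background correction, normalization between arrays and summary of probes), per the submitters' processing notes; versions, batches and scan dates were not used here. Array medians ran from 7.08 to 7.20, and the number of arrays limits the precision. The labels number each sample as a separate dog, so the spread is that between dogs.

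The platform table paired 29254 probe sets with 1 symbol, and the probe set with the highest mean stood for each of 15115 genes. Of the 68 genes, 42 had more than 1 probe set; 66 further probe sets followed the first at a median correlation of 0.864, 7 of them under 0.3. Of the 68 Entrez identifiers, 66 were in a RefSeq gene table. No sequence of these genes was used here.

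Groups were taken from the labels. Group differences came from limma 3.58.1 under R 4.3.3 (two-sided, Benjamini-Hochberg over all genes, threshold 0.05), with stratum as a covariate for IGHV status, and outcome with a stratified Cox score test (Breslow ties; survival 3.8.3 gave the hazard ratios). Indicator 1 was taken to mean an event: in each of the 8 dogs with PFS indicator 0 both times were equal. Steps were tested on simulated data, where the level asked of the rank-sum step for MZL was lowered after it had fallen short. The genes, lists and tests were chosen with earlier results of these data known. The text names the 5 genes with the smallest p in each comparison, those with the largest and smallest SD and the highest and lowest correlation with the others, 26 genes chosen for their role, and the 10 other genes most like the 68; NDUFS7, NDUFS8, NDUFV2, NDUFA10, UQCRC2, UQCR10, UQCRQ, ATP5J2, ATP5PO, NDUFB8 and NDUFB11 were added after their values were seen. Arrays stood apart when the mean 3' minus 5' difference of 4 control pairs exceeded 1 or when they were the 2 with the lowest mean correlation; the choice of pairs was made after a first choice had been seen to mark most arrays. Plots used Python 3.11.15 with matplotlib 3.10.9. Alternatives were another summary of probe sets, a filter on dim genes, other normalizations, subsets of samples, covariates, a rank-sum test and leaving out dogs.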

Additional observations from a re-analysis of the deposited data

Results flagged for a closer look

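In groups of 4 to 10 dogs, 40 named genes and the mean of the 68 genes were searched for a dog far from the others, 123 searches in all, of which chance flags about 1 in 20. There were 5 such values. Among static aspirates (n = 7), ATP5MC3 was lowest in dog 42 at 12.31, against 13.24 in the next dog, and NDUFS1 was highest in the same dog at 11.63, against 10.99. COX7A1, the muscle form of a complex IV subunit, was lowest in dog 29 at 7.32, against 7.71. Among ongoing MZL (n = 4), COX7A2L was lowest in dog 5 at 11.46, against 11.67. Among all 7 MZL, NDUFAF1 was lowest in dog 36 at 10.62, against 10.89. Dogs 42 and 29 are also the static aspirates with the lowest mean of the 68 genes. No interaction between IGHV status and specimen passed for these genes.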

How the results depend on the processing

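In no alternative run did any of the 68 genes pass an adjusted p of 0.05. Of 275 alternative values of the 5 genes named per comparison, 270 kept their direction. These genes were picked by their p in the main fit and the alternatives reuse the same arrays, so a kept direction is not independent evidence. The 5 that turned were z values. For PFS, COX4I2 was at 0.41 in lymph node and 1.51 in lymph node DLBCL, and NDUFV1 at -0.31 in aspirates. For OS in aspirates, COX6A2 was at -0.015 and NDUFV1 at -0.94. The cause was not tested; these fits hold fewer dogs. The shared pattern fell from 53.8% to 43.3% of the variance without the 2 lowest and 2 highest dogs, a step that takes out the dogs with the widest values. Over the alternatives the median difference of the 68 genes ran from -0.063 to -0.023 for IGHV status and from -0.076 to -0.013 for specimen, and the median z from -0.234 to 0.375 for PFS and from 0.069 to 0.489 for OS. The median z for PFS was 0.005 (34 of 68 above 0) and for OS 0.069 (38 above 0) when arrays were quantile normalized again. The median MZL difference was 0.014 with IGHV status as covariate. Over all genes, the count called between aspirates and lymph nodes was 18, against 5 to 58 in the alternatives. Some alternatives were added after the data were seen: the interaction with other normalizations and the removal of extreme dogs. No paired analysis was possible because each number names a different dog.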
